A study of Mus musculus with 6 samples.

Results

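The genes that make, load and display peptide antigens were examined in EMT6 cells, a line grown from a mouse mammary carcinoma. They comprised 34 genes, picked by symbol and function with earlier results of these data known, and all 34 were among the 53465 genes listed. Told apart by role, they were 2 classical class I heavy chains, the class I light chain, 8 non-classical class I heavy chains, 2 class I-like molecules encoded outside the MHC, 7 genes of peptide transport and loading, 5 of the immunoproteasome and its activator, 2 peptide-trimming enzymes, 4 class II genes and 3 regulators. In the 3 PVITRO samples EMT6 cells had been kept with an isotype control antibody, and in the 3 PTRVITRO samples with anti-PD-L1, each at 0.5 μg/ml for more than 4 weeks. Both groups were grown in the same medium, and the labels name no interferon or immune cells added to either. The comparison asks whether prolonged binding of PD-L1 by antibody, in the absence of T cells, was accompanied by a different level of antigen presentation transcripts.

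Polyadenylated RNA was sequenced to between 17757341 and 32426739 counts per sample. Of all genes, 14217 had enough counts to be tested, and 35 of them were called, that is, had a Benjamini-Hochberg adjusted p below 0.05 in edgeR's quasi-likelihood test. The biological coefficient of variation within groups was 5.00%. The labels do not name separate cultures for the 3 samples of a group, and the study describes its replicates as technical unless it says otherwise, so the tests cover the spread between these libraries and not that between independently treated cultures. Cd274, which encodes PD-L1 itself, had 17.9, 15.8 and 17.78 CPM (counts scaled to library size, after upper-quartile scaling) in PVITRO and 18.5, 18.03 and 17.3 in PTRVITRO, and the groups overlapped. Values with ± below are means and SDs over the 3 libraries of a group. Of the markers of leukocytes and professional antigen presenting cells, 5 of 14 (Ptprc, Adgre1, Flt3, Ms4a1 and Xcr1) were at 0 counts in every library, and the list summed to between 12.8 and 14.8 CPM in PVITRO and between 12.6 and 14.2 in PTRVITRO, most of it Cd68. Mammary epithelial markers summed to 1540 to 1710 CPM over the 6 libraries, led by Krt8, and Cdh1 averaged fewer than 1 count. The 6 mesenchymal markers summed to 9630 to 10500 CPM in PVITRO and 8810 to 9230 in PTRVITRO, and 0 were called. Most of that sum was Fn1, with 6645 ± 471 CPM in PVITRO and 5866 ± 315 in PTRVITRO. Fn1, Col1a1 and Zeb1 were lower in every PTRVITRO library, while Vim, Snai2 and Acta2 overlapped between groups. The part of the mesenchymal markers in the differences below was not tested. The 3 endothelial markers together stayed at or below 0.257 CPM.

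MHC class I molecules are formed by a heavy chain, B2m and a short peptide, and show the proteins made inside a cell to CD8 T cells. The peptides are cut by the proteasome, carried into the endoplasmic reticulum by the TAP transporter, trimmed there, and fitted into the heavy chain by a loading complex. MHC class II molecules display peptides from endosomes to CD4 T cells and belong mainly to professional antigen presenting cells. Interferons raise many genes of the class I pathway, and tumor cells that lose parts of that pathway are less visible to T cells.

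EMT6 cells of both groups held transcripts for each step of the class I pathway, and no tested gene of the 34 was called between them. With edgeR, 0 of the 29 tested members had an adjusted p below 0.05, against 0.246% of all tested genes, and DESeq2 and limma-voom also called 0. An unadjusted p below 0.05 was reached by 4 members (H2-Q10, Tap2, Tap1 and Psmb10), a share close to the 11.4% of all tested genes. All 4 had the lower mean in PTRVITRO. In bulk RNA, fewer cells expressing a gene and less of its RNA per cell cannot be told apart. The other 5 members (Cd1d1, H2-Aa, H2-Ab1, Ctss and Ciita) had too few counts to be tested.

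The differences were small, and most estimates were lower in PTRVITRO, but the direction of some depended on single libraries. The estimate was lower in PTRVITRO for 20 of the 29 tested members and higher for 9, with a median log2 fold change of -0.03 (-0.02 without a scaling factor), compared with 7324 of 14217 genes lower and a median of -0.004 over all tested genes. With a library left out, 22 of 174 estimates changed direction, some to higher and some to lower. Without PVITRO replicate 1, H2-T22, Tapbp, Psmb8, Psmb9 and Psme1 became higher in PTRVITRO. Without PVITRO replicate 2, B2m, H2-T23 and Pdia3 became lower, and H2-Q6 and H2-Q7 higher. The median size of the log2 fold change, sign ignored, was 0.05 in the members and 0.07 in all tested genes. For 8 members (H2-D1, H2-Q4, H2-Q10, Tap1, Tap2, Calr, Canx and Psme2) every PTRVITRO library lay below every PVITRO library, where 9.33% of all tested genes did so. For 0 members did every PTRVITRO library lie above, against 8.27% of all tested genes. The 95% interval excluded a 1.5-fold difference in either direction for all 29 tested members, and a 1.25-fold difference for 28 of them, H2-T24 being the exception. The members together held between 0.906% and 0.931% of all counts in each library.

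**Figure D1:**
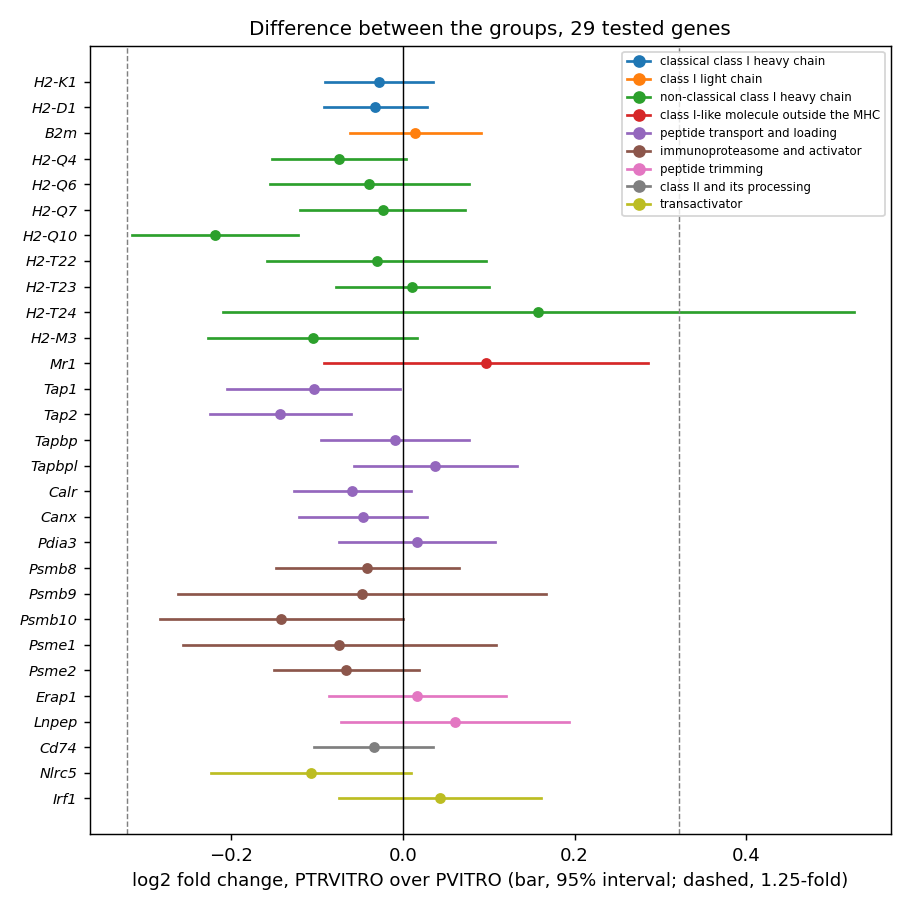
Log2 fold change of each tested gene, PTRVITRO over PVITRO, with its 95% interval from edgeR's quasi-likelihood fit (3 libraries per group); colours give the role and dashed lines mark a 1.25-fold difference. The points lie between -0.22 (H2-Q10) and 0.16 (H2-T24), and only the interval of H2-T24 crosses a dashed line.

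The classical class I heavy chains, which present peptides to CD8 T cells, were among the most abundant transcripts of the group. H2-K1 (GRCm38 chr17:33996017-34000347, minus strand) had 1061, 1061 and 1038 CPM in the PVITRO libraries and 1044, 1035 and 1022 in the PTRVITRO libraries. The groups overlapped, since PTRVITRO replicate 1 lay above PVITRO replicate 3. Its log2 fold change was -0.03 (95% interval -0.09 to 0.04, adjusted p = 0.762). H2-D1 (chr17:35262730-35267499, plus strand) had 1571, 1541 and 1561 CPM in PVITRO and 1514, 1530 and 1526 in PTRVITRO. All 3 treated libraries of H2-D1 were below the control libraries, the nearest of them at 1530 against 1541 CPM. Its log2 fold change of -0.03 (interval -0.09 to 0.03, adjusted p = 0.696) did not pass the test. B2m (chr2:122147686-122153083), the light chain that every class I heavy chain needs to reach the surface, had 1597, 1535 and 1656 CPM in PVITRO and 1648, 1605 and 1583 in PTRVITRO. These overlapped fully, with a log2 fold change of 0.01 (interval -0.06 to 0.09). Per kilobase of transcript, a scale on which genes can be compared, B2m stood first of the 34 at 1856 ± 70.8 CPM per kb in PVITRO, followed by H2-D1 at 741 ± 7.43 and H2-K1 at 651 ± 8.33. The ratio of B2m to the sum of both heavy chains on that scale was 1.33 ± 0.0539 in PVITRO and 1.37 ± 0.0258 in PTRVITRO.

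The promoters of these 3 genes are shown because they carry a shared control element. The class II gene H2-Aa, which had 0 counts here, carries it as well. In MHC promoters an X2 box and a Y box lie at a fixed distance and are occupied by a common set of DNA-binding factors, to which NLRC5 is recruited at class I genes and CIITA at class II genes. The element was searched as TGACG followed after 14 to 24 bases by ATTGG, on both strands, in the RefSeq windows of 300 bases around each start site (GRCm38.p6, mostly upstream of the start). It occurred in 138 of 32851 windows (0.42%) and in those of 6 of the 26 members with a window: H2-K1, H2-D1, B2m, H2-M3, H2-Q7 and H2-Aa. Such a match describes letters in the C57BL/6 reference, not a bound site, and EMT6 comes from BALB/c mice, whose MHC haplotype differs. In the sequences below, printed 5′ to 3′ on the strand of the gene, capitals mark the TGACG and ATTGG parts.
H2-K1 (chr17:34000284-34000583, minus strand): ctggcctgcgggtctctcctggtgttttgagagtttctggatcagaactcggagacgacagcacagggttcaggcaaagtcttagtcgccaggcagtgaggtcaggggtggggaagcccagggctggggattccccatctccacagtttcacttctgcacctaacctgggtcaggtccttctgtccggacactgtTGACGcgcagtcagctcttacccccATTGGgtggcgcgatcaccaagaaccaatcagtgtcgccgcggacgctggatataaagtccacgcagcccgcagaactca
H2-D1 (chr17:35262844-35263143, plus strand): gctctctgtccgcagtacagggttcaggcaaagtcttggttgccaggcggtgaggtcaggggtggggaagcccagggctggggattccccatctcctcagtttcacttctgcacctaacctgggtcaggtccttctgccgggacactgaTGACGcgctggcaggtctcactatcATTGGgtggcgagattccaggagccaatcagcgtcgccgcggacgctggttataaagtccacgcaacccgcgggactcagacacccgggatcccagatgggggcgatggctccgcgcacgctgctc
B2m (chr2:122147437-122147736, plus strand): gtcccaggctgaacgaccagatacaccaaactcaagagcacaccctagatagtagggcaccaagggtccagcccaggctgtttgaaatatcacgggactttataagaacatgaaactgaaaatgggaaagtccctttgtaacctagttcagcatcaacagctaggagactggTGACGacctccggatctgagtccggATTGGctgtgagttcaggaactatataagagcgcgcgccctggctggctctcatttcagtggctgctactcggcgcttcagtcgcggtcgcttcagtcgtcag
H2-Aa (chr17:34287774-34288073, minus strand): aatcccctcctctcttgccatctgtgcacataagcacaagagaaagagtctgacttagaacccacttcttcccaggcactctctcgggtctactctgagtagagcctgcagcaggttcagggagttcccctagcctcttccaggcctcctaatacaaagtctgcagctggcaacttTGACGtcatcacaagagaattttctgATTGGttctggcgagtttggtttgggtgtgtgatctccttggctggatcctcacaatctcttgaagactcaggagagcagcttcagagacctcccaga
The TGACG part began 55 bases before the start site of the H2-K1 window shown, 101 in H2-D1, 78 in B2m and 74 in H2-Aa. H2-K1 has another RefSeq window, in which the same part began 41 bases before the start site. The 2 parts were 20 bases apart in H2-K1, H2-D1 and B2m and 21 in H2-Aa. Mean expression in PVITRO was 1054 CPM for H2-K1, 1558 for H2-D1 and 1596 for B2m, and H2-Aa had 0 counts. For H2-Aa, loss of reads from a divergent BALB/c allele cannot be told apart from absence.

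An interferon regulatory factor core was searched in the same windows as GAAANNGAA on both strands. It occurred in 8.56% of all windows and in those of 6 members, B2m, Ctss, Erap1, H2-T22, H2-T23 and Psme1. Forms of the core with another spacing were not searched, so a window without a match is not shown to lack such a site. This limit applies to the H2-K1 and H2-D1 windows printed above. A STAT element, TTCNNNGAA, a sequence equal to its own reverse complement, occurred in 8.30% of all windows and in those of H2-M3, Irf1 and Psmb8. Tap1 and Psmb9 are arranged head to head with 226 bases between their start sites, so their windows overlap, and none of the 3 motifs was found there.

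Non-classical class I genes are less variable relatives of the classical heavy chains with specialised ligands. Of the 8 measured, 6 had a lower and 2 a higher mean in PTRVITRO, and none was called. H2-Q10 (chr17:35470089-35474563, plus strand), which encodes a class I molecule known as a secreted liver product, showed the smallest p of the 34 genes. It had 55.8, 59.1 and 58.0 CPM in PVITRO and 48.6, 48.9 and 51.5 in PTRVITRO. The lowest control library was thus above the highest treated library. The log2 fold change was -0.22 ± 0.04 (SE; interval -0.32 to -0.12, adjusted p = 0.0871), and without a filter on low counts it was called (adjusted p = 0.00837). H2-Q10 shares sequence with its neighbours: 19.0% of its 50-base stretches also occur in transcripts of other genes, 13.99% in H2-Q7. Its estimated count was not whole in any of the 6 libraries, which also held for Irf1, a gene without such shared stretches. When the 8 H2-Q genes were summed into 1 row, that row had 761, 772 and 734 CPM in PVITRO and 698, 715 and 755 in PTRVITRO. The summed groups overlapped, and the log2 fold change of the sum was -0.06 (adjusted p = 0.548).

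H2-Q4, the most abundant non-classical gene at 208 ± 3.12 CPM per kb in PVITRO, had 372, 380 and 369 CPM in PVITRO and 342, 357 and 366 in PTRVITRO. Its groups were narrowly apart, and the log2 fold change of -0.07 did not pass the test (adjusted p = 0.453). H2-Q6, which like H2-Q7 encodes Qa-2, overlapped between groups at 137 ± 8.26 against 133 ± 6.86 CPM. H2-Q7 also overlapped, with 64.1, 67.9 and 63.1 CPM in PVITRO and 62.9, 65.4 and 63.8 in PTRVITRO. Between 19.0% and 32.0% of the 50-base stretches of H2-Q4, H2-Q6, H2-Q7 and H2-Q10 occur in another gene, so how the counting shared reads among them is uncertain.

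H2-T23, which encodes Qa-1, the ligand of the inhibitory receptor NKG2A, had 148 ± 3.68 CPM in PVITRO and 150 ± 5.45 in PTRVITRO. H2-T22, a ligand of some gamma-delta T cells that shares 31.2% of its 50-base stretches with H2-T10, had 63.1 ± 4.35 and 61.5 ± 3.28 CPM. Both overlapped between groups. H2-T24 was the least abundant tested member at 3.12 ± 0.602 and 3.46 ± 0.180 CPM, and its interval was the widest, from -0.21 to 0.53 on the log2 scale. H2-M3, which presents N-formylated peptides, had 63.9, 62.6 and 61.2 CPM in PVITRO and 53.3, 61.6 and 60.0 in PTRVITRO. PTRVITRO replicate 1 alone stood well below the rest, and the log2 fold change of -0.11 did not pass (adjusted p = 0.513). In each library H2-K1 and H2-D1 held between 71.1% and 72.4% of the counts of H2-K1, H2-D1 and the H2-Q, H2-T and H2-M genes together (H2-K2 not included), with means of 71.5% in PVITRO and 71.8% in PTRVITRO. The class I symbol H2-L matched no gene listed. Class I levels, shared stretches and this share rest on the C57BL/6 reference, and effects of the BALB/c alleles on them could not be checked. Outside the MHC, Mr1, which presents vitamin B metabolites to MAIT cells, had 16.3 ± 0.485 and 17.4 ± 2.01 CPM, with PTRVITRO replicate 1 (19.6 CPM) the highest. Cd1d1, which presents lipids to NKT cells, had 5, 4 and 8 counts in PVITRO and 19, 7 and 6 in PTRVITRO, near the floor of 3 counts.

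**Figure D2:**
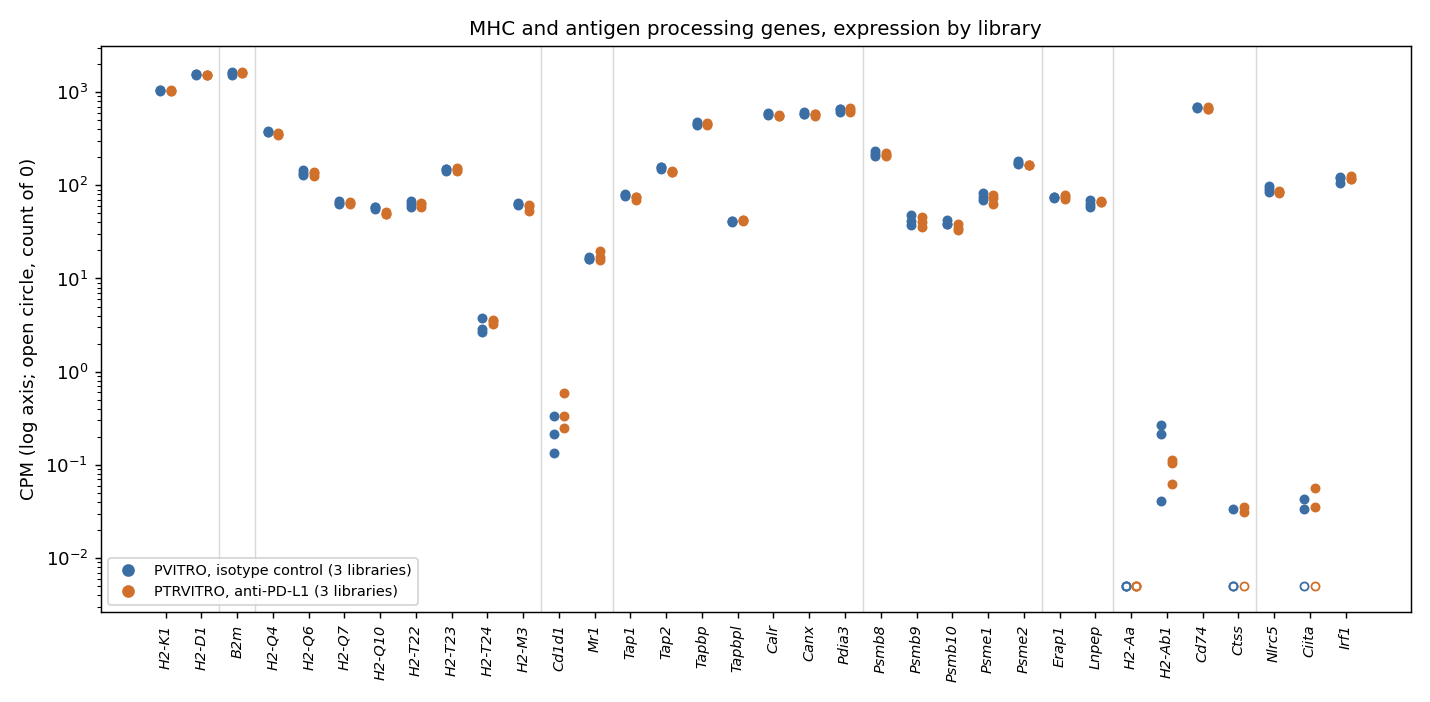
Expression of the 34 genes in each library in CPM on a log axis, ordered by role (vertical lines separate roles); blue points are PVITRO, orange points PTRVITRO, and open circles stand for a count of 0. The 29 tested genes lie between 2.69 CPM (H2-T24) and 1656 CPM (B2m) with the groups close together, while H2-Aa, H2-Ab1, Ctss, Ciita and Cd1d1 lie below 1 CPM in every library.

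Both subunits of the TAP transporter lay lower in every PTRVITRO library, though neither was called. Tap2 had 157, 149 and 156 CPM in PVITRO and 138, 142 and 139 in PTRVITRO. The log2 fold change of Tap2 was -0.14 ± 0.04 (SE; interval -0.22 to -0.06, adjusted p = 0.176). Tap1 (chr17, beside Psmb9) had 78.8, 76.1 and 80.5 CPM in PVITRO and 69.2, 74.8 and 75.2 in PTRVITRO. PVITRO replicate 2 and PTRVITRO replicate 3 of Tap1 nearly met. Its log2 fold change was -0.10 ± 0.05 (SE; interval -0.20 to -0.003, adjusted p = 0.424). The ratio of Tap2 to Tap1 per kilobase was 1.68 ± 0.0200 in PVITRO and 1.64 ± 0.0610 in PTRVITRO and overlapped between groups. Both subunits are required for a working transporter.

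The rest of the loading machinery was abundant and close between groups. Tapbp, or tapasin, which bridges TAP and the class I heavy chain, had 458 ± 18.6 CPM in PVITRO and 455 ± 14.4 in PTRVITRO, a log2 fold change of -0.01 that turned to 0.003 without a scaling factor. Its homologue Tapbpl, or TAPBPR, an editor of bound peptides, had 40.9 ± 0.699 and 41.9 ± 0.719 CPM. Pdia3, the thiol oxidoreductase of the loading complex, had 638 ± 27.9 and 645 ± 25.2 CPM. All of these overlapped. The lectin chaperones did not: Calr had 583, 574 and 590 CPM in PVITRO and 572, 556 and 550 in PTRVITRO. Canx had 585, 585 and 608 CPM in PVITRO and 555, 582 and 584 in PTRVITRO. In both genes the nearest libraries of the groups almost met, and neither passed (log2 fold change -0.06, adjusted p = 0.515 for Calr, and -0.05, adjusted p = 0.645 for Canx).

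The immunoproteasome is a form of the proteasome in which Psmb8, Psmb9 and Psmb10 take the place of the catalytic subunits Psmb5, Psmb6 and Psmb7, and Psme1 and Psme2 form the PA28 activator. All 5 genes had a lower mean in PTRVITRO, 0 were called, and the groups overlapped for 4 of them. Psmb8 had 231, 205 and 218 CPM in PVITRO and 221, 209 and 204 in PTRVITRO. Psmb9 had 48.0, 37.4 and 41.5 CPM in PVITRO and 45.7, 39.9 and 35.9 in PTRVITRO. Psme1 had 83.4, 68.9 and 75.5 CPM in PVITRO and 79.4, 72.2 and 63.4 in PTRVITRO. In these 3 genes the difference between libraries of 1 group exceeded the difference between the group means. Replicate 1 was the highest library of each group in all 5 genes, though only narrowly for Psme2 in PTRVITRO. Replicate numbers are not known to mark a shared culture or day. Psmb10 had 42.0, 38.0 and 38.5 CPM in PVITRO and 38.8, 34.7 and 33.5 in PTRVITRO. PTRVITRO replicate 1 reached into the control range, and the log2 fold change of -0.14 (interval -0.28 to -0.0002) had an adjusted p of 0.438. Psme2 had 181, 167 and 174 CPM in PVITRO and 167, 165 and 167 in PTRVITRO, with the nearest libraries almost equal, and 28.3% of its 50-base stretches occur in Psme2b.

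Tap1 and Psmb9, although they share a promoter region, did not follow the same order across libraries. Psmb9 departed from its mean by 0.15 (log2) in PTRVITRO replicate 1 and -0.20 in PTRVITRO replicate 3, whereas Tap1 departed by -0.13 and -0.01. Psme1 and Psmb9 were alike in this respect, at 0.11 and -0.21 for Psme1 in the same 2 libraries. Psme2, whose product pairs with that of Psme1, departed by -0.03 in both.

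The subunits replaced in the immunoproteasome were added for comparison. Per kilobase of transcript, Psmb8 had 134 ± 7.99 CPM per kb in PVITRO and Psmb5 had 92.5 ± 4.84, whereas Psmb9 (31.3 ± 3.96) and Psmb10 (30.1 ± 1.62) were well below Psmb6 (132 ± 7.23) and Psmb7 (192 ± 5.29). The ratio of Psmb8 to Psmb5 was 1.49, 1.45 and 1.41 in PVITRO and 1.57, 1.58 and 1.51 in PTRVITRO. Every treated library was above the controls in this ratio, and the exact two-sided permutation p was 0.1, the smallest that 3 against 3 allows (adjusted p = 0.7 over the 7 ratios compared). Psmb5 itself had 83.2 ± 4.35 CPM in PVITRO and 75.2 ± 2.30 in PTRVITRO (log2 fold change -0.14, adjusted p = 0.278 with edgeR), and Psmb8 differed by -0.04. The ratio of Psmb9 to Psmb6 was 0.237 ± 0.0169 and 0.230 ± 0.0143, and that of Psmb10 to Psmb7 was 0.157 ± 0.00896 and 0.140 ± 0.0100. Both overlapped between the groups.

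**Figure D3:**
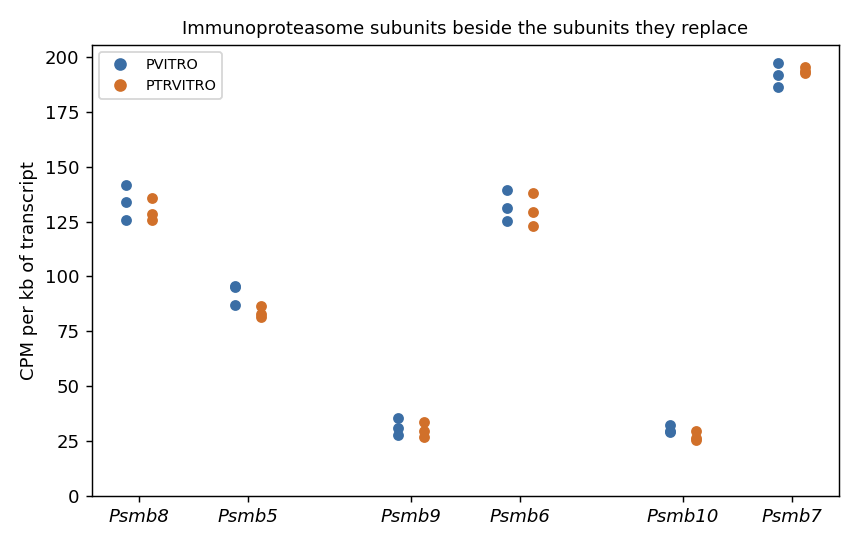
CPM per kilobase of transcript of the immunoproteasome subunits Psmb8, Psmb9 and Psmb10, each beside the constitutive subunit it replaces, in the 3 libraries per group. Psmb8 lies above Psmb5 in all 6 libraries, while Psmb9 and Psmb10 lie far below Psmb6 and Psmb7.

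The enzymes that trim peptides after the proteasome had slightly higher means in PTRVITRO. Erap1, the trimming aminopeptidase of the endoplasmic reticulum, had 72.2, 75.0 and 74.2 CPM in PVITRO and 70.8, 78.8 and 74.6 in PTRVITRO. Lnpep, or IRAP, its endosomal counterpart in cross-presentation, had 58.4, 69.9 and 62.8 CPM in PVITRO and 65.4, 68.4 and 65.8 in PTRVITRO. Both overlapped between groups, with log2 fold changes of 0.02 and 0.06 and adjusted p values of 0.929 and 0.750.

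The class II pathway was split. Cd74, the invariant chain that guides class II molecules to the endosome, was the fourth most abundant member per kilobase, at 485 ± 3.50 CPM per kb in PVITRO and 474 ± 12.9 in PTRVITRO. In CPM it had 684, 689 and 679 in PVITRO and 651, 666 and 688 in PTRVITRO, which overlapped (log2 fold change -0.03, interval -0.10 to 0.04). Its partners were nearly absent. H2-Aa, the class II alpha chain, had 0 counts in all 6 libraries, which allows up to 0.0925 CPM in the deepest and 0.168 CPM in the shallowest library. H2-Ab1, the beta chain, had 5, 8 and 1 counts in PVITRO and 2, 3 and 2 in PTRVITRO. Ctss, or cathepsin S, which removes the invariant chain, had 0, 1 and 0 counts in PVITRO and 1, 1 and 0 in PTRVITRO. These counts, at or near the floor of 3, give no measure of a difference between the groups. No sequence of the BALB/c haplotype was compared, so reads from a divergent H2-Aa or H2-Ab1 allele that failed to align cannot be told apart from absence. The abundant Cd74 was measured in libraries in which Ptprc, the common leukocyte antigen, had 0 counts.

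Of the regulators, Nlrc5 and Irf1 were expressed and Ciita was at the floor. Nlrc5, the transactivator of class I genes, had 84.1, 97.4 and 91.5 CPM in PVITRO and 86.3, 84.3 and 82.9 in PTRVITRO. PVITRO replicate 1 lay within the treated range, and the log2 fold change of -0.11 (interval -0.22 to 0.01) had an adjusted p of 0.483. Ciita, the master regulator of class II genes, had 1, 1 and 0 counts in PVITRO and 0, 1 and 1 in PTRVITRO. Irf1, an interferon-induced factor that acts on class I, Tap1 and immunoproteasome promoters, had 120, 122 and 107 CPM in PVITRO and 118, 124 and 117 in PTRVITRO. The Irf1 groups overlapped, with a log2 fold change of 0.04 (adjusted p = 0.810).

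The libraries at either end differed from gene to gene. PVITRO replicate 1 was the highest of the 6 for 12 of the 29 tested members. These include H2-K1, where it tied with PVITRO replicate 2 at a rounded 1061 CPM. PTRVITRO replicate 1 was the lowest for 12, while PTRVITRO replicate 3, the shallowest, was the lowest for 8 and the highest for 0. The largest departures from a gene's mean were in H2-T24, Psmb9, Psme1 and Mr1, in libraries of both groups.

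**Figure D4:**
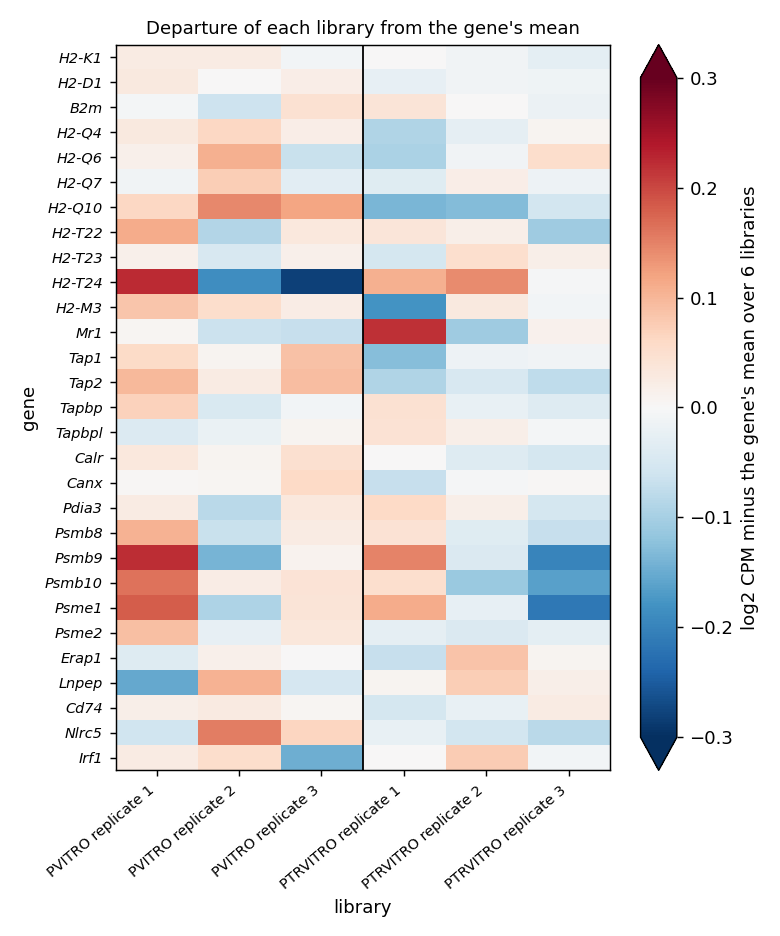
Log2 CPM of each tested gene minus its mean over the 6 libraries (red above, blue below, colour scale from -0.3 to 0.3; libraries in columns, PVITRO left of the line). H2-Q10 and Tap2 are above their mean in all PVITRO libraries and below it in all PTRVITRO libraries, while Psmb9 and Psme1 are above it in replicate 1 of both groups.

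A wider list of 140 other genes of antigen processing was drawn up by role, also with earlier results of these data known. Of these genes, 131 were found in the table and 104 were tested. With edgeR, 0 were called and 21 of the 104 had an unadjusted p below 0.05, against 11.4% of all tested genes, and DESeq2 and limma-voom also called 0. The list had 45 genes higher and 59 lower in PTRVITRO, with a median log2 fold change of -0.02. The folding and loading genes of the endoplasmic reticulum, the compartment of Calr, Canx and Pdia3, were lower for 16 of 18 genes, with a median of -0.07 and 9 at an unadjusted p below 0.05, where 7324 of all 14217 tested genes were lower, the median was -0.004 and 11.4% reached that p. Their most abundant gene, Hspa5 (BiP), had 4200 ± 214 CPM in PVITRO and 3890 ± 212 in PTRVITRO and overlapped between groups (adjusted p = 0.386). Sec61a1, the pore of the translocon, had 297, 289 and 296 CPM in PVITRO and 262, 272 and 267 in PTRVITRO. It lay lower in every treated library (log2 fold change -0.14, adjusted p = 0.139), while Spcs1, a signal peptidase subunit, was higher in each (204 ± 4.04 against 219 ± 3.44 CPM, adjusted p = 0.292).

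Among endosomal proteases, Ctsh (cathepsin H) had 12.2, 11.2 and 10.59 CPM in PVITRO and 8.79, 8.47 and 7.97 in PTRVITRO. This was the smallest p of the wider list, with a log2 fold change of -0.42 ± 0.09 (SE) and an adjusted p of 0.0919. Lgmn (asparagine endopeptidase) differed the other way, with 89.1 ± 0.620 against 96.8 ± 0.553 CPM (adjusted p = 0.226). Cst3, the cysteine protease inhibitor and the most abundant gene of that group per kilobase, had 146, 125 and 140 CPM in PVITRO and 134, 124 and 118 in PTRVITRO, which overlapped.

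Of the regulators of MHC genes, 15 were higher and 16 lower. Stat2, which carries type I interferon signals, had 37.4, 33.3 and 34.4 CPM in PVITRO and 39.7, 41.9 and 40.2 in PTRVITRO, all treated libraries above the controls (log2 fold change 0.22, adjusted p = 0.170). Nfyb, a subunit of the factor that binds the Y box, was likewise apart at 60.9 ± 3.46 and 67.4 ± 2.07 CPM (adjusted p = 0.292). Nfkb2 was the most abundant of them per kilobase and overlapped at 281 ± 24.1 and 265 ± 8.24 CPM.

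Of the cytosolic peptidases and proteasome activators, Ide, an insulin-degrading peptidase, had 90.2 ± 5.57 and 78.5 ± 3.97 CPM (log2 fold change -0.20, adjusted p = 0.197). Psme3, the PA28 gamma activator, had 244 ± 10.7 and 227 ± 4.72 CPM (adjusted p = 0.336). Of the trafficking genes, Sec24d, a COPII coat subunit, had 130 ± 0.966 and 119 ± 3.84 CPM (adjusted p = 0.226), and Rab7, a late endosomal GTPase, had 268 ± 8.56 and 256 ± 3.28 CPM (adjusted p = 0.521). These 4 genes were lower in every treated library. H2-Q5, the most abundant of the further class I genes tested, overlapped at 51.2 ± 2.26 and 49.5 ± 4.75 CPM. The class II editor chain H2-DMa had 2.83 ± 0.204 and 2.65 ± 0.461 CPM and was the only one of 8 further class II genes with enough counts to be tested. H2-Eb1 and H2-DMb1 averaged 1 count or fewer per library.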

How the data were processed

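Polyadenylated RNA of 6 EMT6 samples was sequenced from stranded libraries. The authors aligned the reads to GRCm38 with STAR 2.6.0a and deposited gene-level expected counts (estimated counts) from RSEM 1.3.1, not scaled between samples. Whether RSEM was told the strand is not given in the sources used here. Fractions arise where reads fit several genes, as among class I genes.

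The deposited values were rounded to whole numbers, low genes dropped (filterByExpr, minimum count 10, minimum total 15), libraries scaled by the upper quartile, and groups compared over all 14217 genes with edgeR 4.0.16 in R 4.3.3 (quasi-likelihood, Benjamini-Hochberg, called below 0.05). SEs and 95% intervals follow from the F statistic. Depth was 17757341 to 32426739 counts, and 3 counts were taken as the floor. Intervals and floors cover counting error and library spread only. CPM per kb used the longest APPRIS principal transcript of GENCODE M21. Ratios between genes were compared by exact permutation. In simulated data for this comparison, 89 of 100 genes changed 1.5-fold and 96 of 100 changed 2-fold were called among 14217. The simulation gave every gene the same dispersion and changed no gene with a low mean count. Recovery in the measured libraries was not tested and may be lower.

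Members, lists and the search for motifs were chosen with earlier results of these data known. All members are named, with the 8 other pathway genes of smallest p and the most abundant tested gene of each role. Other genes were chosen after their values were seen. Of the wider list, 131 of 140 symbols matched. Alternatives were TMM, no scaling factor, DESeq2 1.42.0, limma-voom (limma 3.58.1), other filters, a replicate block, summed class I families and leaving out each sample.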

Additional observations from a re-analysis of the deposited data

How the results depend on the processing

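The number of genes called, 35, became 111 with DESeq2, 400 without a filter on low counts, 68 with the replicate block, and 54 when each library had to hold 10 or more. It ran from 8 to 64 when libraries were left out, with 11 without PVITRO replicate 1, 64 without PVITRO replicate 2, 9 without PVITRO replicate 3, 12 without PTRVITRO replicate 2 and 8 without PTRVITRO replicate 3. Members called stayed at 0 under all of these except without a filter, where H2-Q10 alone was called, and 4 other pathway genes were. Members at an unadjusted p below 0.05 numbered 2 without a scaling factor and 2 with DESeq2, and 2 to 6 with a library left out (2 without PVITRO replicate 3). The median of the members ran from -0.0394 to -0.0155 in those fits, with -0.0173 without PVITRO replicate 1 and -0.0155 without PTRVITRO replicate 3. The cause of these shifts was not tested.

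Of 232 comparisons with other settings, 229 gave the direction and side of the threshold of the values above, 1 was stronger (H2-Q10 without a filter) and 2 reversed: Tapbp without a scaling factor (0.0031) and H2-T22 with class I families summed (0.0032, the sum of the T genes). With a library left out, 152 of 174 log2 fold changes kept their direction and 22 reversed, to at most 0.0559 in size. Their values ran from -0.0820 to 0.0215 for H2-T22, -0.0342 to 0.0283 for Tapbp, -0.0839 to 0.0065 for Psmb8, -0.1452 to 0.0559 for Psmb9, -0.1540 to 0.0047 for Psme1, -0.0121 to 0.0440 for B2m, -0.0788 to 0.0071 for H2-Q6, -0.0432 to 0.0106 for H2-Q7, -0.0108 to 0.0421 for H2-T23, -0.0185 to 0.0503 for Pdia3, -0.0138 to 0.0828 for Irf1, -0.0076 to 0.1757 for Mr1 and -0.0231 to 0.0582 for Erap1. Without reversing, a library left out moved others by over 1.5 times, with ranges of -0.0364 to -0.0155 for H2-K1, -0.0394 to -0.0209 for H2-D1, -0.0921 to -0.0467 for H2-Q4, 0.0676 to 0.3228 for H2-T24, -0.1478 to -0.0392 for H2-M3, -0.1259 to -0.0629 for Tap1, -0.0556 to -0.0223 for Canx, -0.2093 to -0.0925 for Psmb10, -0.0940 to -0.0321 for Psme2, 0.0082 to 0.1359 for Lnpep, -0.0505 to -0.0143 for Cd74 and -0.1552 to -0.0533 for Nlrc5. The furthest from the value with all libraries came without PTRVITRO replicate 1 for Tap1, H2-M3 and Canx, without PVITRO replicate 2 for Nlrc5 and Lnpep, and without PVITRO replicate 1 for H2-T24.

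Whether the shared replicate numbers pair the samples cannot be told from the values that follow. Same-numbered libraries had correlations of 0.109, 0.0950 and -0.0556 in their departures from the group means, and 4 of 6 libraries correlated best with their own number. With the replicate block 68 genes were called instead of 35, and 0 members were called. The median distance from estimate to 95% interval bound was 0.0969 (log2) among the members, before adjustment over all genes. Larger differences, such as H2-Q10 at -0.22, also missed the adjusted threshold, so a member that was not called is not shown to be equal in the groups.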
